A study of Mus musculus with 9 samples.

Results

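Thyroid hormone is converted, carried and sensed in cells by 7 genes described here, namely the deiodinases Dio1 and Dio2, the transporters Slc16a10 and Slc7a8, the nuclear receptors Thra and Thrb, and Crym, a binding protein of the cytosol. They were chosen by name and found by Ensembl identifier, and all 7 were among the 52636 genes of the table. Thyroids came from male C57BL/6 mice and were dissociated and profiled cell by cell with a droplet kit that counts transcript 3' ends as unique molecular identifiers (UMIs). Each of the 9 samples was a pool of 6 mice, taken 7 days after a single intraperitoneal injection of antibody. The 3 control pools (RW) received an antibody against ragweed at 40 mg/kg. The 3 ligand-blockade pools (aJ1aJ2) received antibodies against the Notch ligands Jag1 and Jag2 at 20 mg/kg each. The 3 receptor-blockade pools (aN1aN2) received antibodies against Notch1 at 5 mg/kg and Notch2 at 10 mg/kg. All mice were of the same strain with no stated genetic change. They were aged from 10 weeks, with a maximum of 12 weeks in one place of the description and 14 weeks in another. The sample titles carry numbers in 3 ranges, called series A (RW 3, aJ1aJ2 1), series B (RW 1, RW 2, aJ1aJ2 3, aJ1aJ2 4) and series C (all aN1aN2 pools), so receptor blockade and series C cannot be told apart.

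The thyroid releases mostly thyroxine (T4), a prohormone, and deiodinases remove one iodine atom to give triiodothyronine (T3), the form that binds the nuclear receptors. Dio1 removes iodine from either ring and is abundant in liver, kidney and thyroid, Dio2 makes T3 inside cells, and Dio3 inactivates both hormones. Hormone crosses membranes on carriers such as MCT10 (Slc16a10) and the LAT2 light chain (Slc7a8), and the receptors encoded by Thra and Thrb act as partners of the retinoid X receptors on target genes.

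All 3 deiodinases are selenoproteins: a TGA codon, normally a stop, is read as selenocysteine in the active site. The 63 bases around that codon are shown for each enzyme because reading it needs a dedicated set of selenocysteine factors. The letters are DNA letters of the transcript, with the TGA codon in capitals, at chr4:107297700-107297702 for Dio1 (codon 126, minus strand), chr12:90729823-90729825 for Dio2 (codon 130, minus strand) and chr12:110279739-110279741 for Dio3 (codon 170, plus strand) in GRCm38.
Dio1: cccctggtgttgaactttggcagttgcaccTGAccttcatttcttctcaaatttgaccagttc
Dio2: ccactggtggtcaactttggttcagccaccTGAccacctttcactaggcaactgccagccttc
Dio3: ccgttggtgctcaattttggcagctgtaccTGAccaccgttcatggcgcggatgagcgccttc
Of these 63 positions, Dio1 and Dio2 shared 36 (57.1%), Dio1 and Dio3 shared 37 (58.7%), and Dio2 and Dio3 shared 41 (65.1%).

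Thra lies at chr11:98740638-98769006 on the plus strand, and its end runs into Nr1d1, a clock repressor encoded on the other strand at chr11:98767932-98775333. The 2 genes overlap by 1075 bases. The transcript of the hormone-binding receptor α1 ends at base 98765111, 2820 bases short of Nr1d1. The transcript of α2, which does not bind T3, has its last exon at chr11:98768157-98769006, and 263 of its exon bases lie opposite exons of Nr1d1. The start of the stretch where both genes are coding is shown because a read from it belongs to Thra or Nr1d1 by strand alone. It is the Thra strand of chr11:98768193-98768282, with the bases opposite Nr1d1 coding sequence in capitals.
Thra: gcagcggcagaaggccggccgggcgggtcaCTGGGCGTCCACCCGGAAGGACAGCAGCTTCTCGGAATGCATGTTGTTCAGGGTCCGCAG
Whether counting used the strand is not given in the sources used here, and a count per gene does not separate α1 from α2, so Thra levels carry that uncertainty throughout and Nr1d1 is given beside them. Dio1 (chr4:107291465-107307169), Dio2 (chr12:90724552-90738438), Slc16a10 (chr10:40033532-40142258), Slc7a8 (chr14:54722209-54781946) and Crym (chr7:120186380-120202111) lie on the minus strand, and Thrb (chr14:17660261-18038090) on the plus strand.

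The table held 10186 cells and 63121420 UMIs. Pool totals ran from 7657020 to 10157319 UMIs in RW, from 4697308 to 11880793 in aJ1aJ2 and from 3013324 to 4447972 in aN1aN2. Cells carried 16 labels given by the authors. Against marker lists, the thyrocyte list was highest in Th1 (median 94712 counts per 1000000 UMIs, CPM, over RW pools), the fibroblast list in F (32797 CPM), the mural list in SM (38819 CPM), the Schwann list in S (19187 CPM), the macrophage list in M (18735 CPM), the T cell list in T2 (8333 CPM) and the endothelial list in EC1 (16585 CPM). The C cell list was highest in Th3 (57022 CPM), which also held the thyrocyte list at 86404 CPM, so Th3 is named by its label only. Th1 held 1169 cells, 62 to 193 in each pool, with median UMIs per cell of 12535 to 22558 in RW, 9968 to 15314 in aJ1aJ2 and 5737 to 7558 in aN1aN2. Of 10171 distinct barcodes, 15 occurred in more than 1 pool.

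In the control thyroid the 7 genes were spread over different cells. Dio1 was a thyrocyte transcript, and Thra was present in most labels and highest in S and SM. Slc7a8 was highest in M, mostly from pool RW 2, with an interval that overlapped that of S. Slc16a10 was highest in the T cell labels among labels with over 10 UMIs, and Dio2 and Crym were barely detected. Over all pools Dio1 had 12309 UMIs, Thra 3861, Thrb 383, Slc16a10 329, Slc7a8 213, Crym 35 and Dio2 26. A 3' UMI is counted once per captured molecule and does not grow with transcript length, so CPM below is a share of captured molecules. Levels across labels are UMIs summed over pools and divided by all UMIs of the label, with exact Poisson 95% intervals that cover counting error only.

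**Figure D1:**
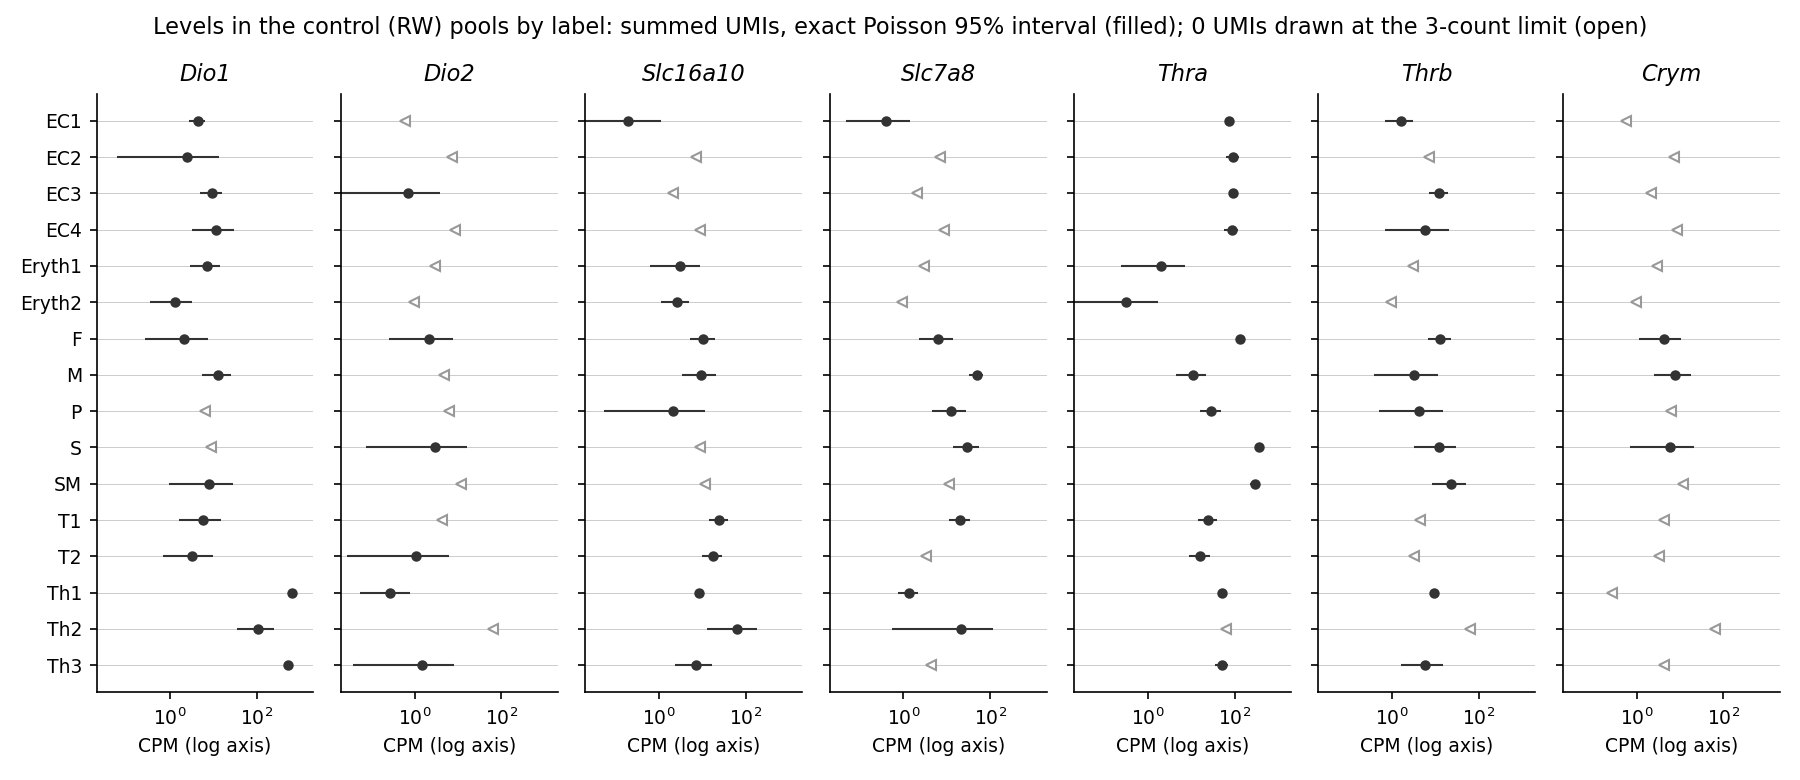
CPM of the 7 genes (log axes) in the 16 labels over the 3 RW pools, with exact Poisson 95% intervals, and open triangles at the limit of 3 counts where no UMI was found. Dio1 stands high in Th1 and Th3, Thra in S and SM, and Slc7a8 in M, where 25 of 31 UMIs came from RW 2.

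Dio1, the type 1 deiodinase, stood at 648.1 CPM (interval 633 to 663) in RW Th1 and at 514.0 CPM (462 to 571) in RW Th3. Th2 followed at 106.0 CPM from 5 UMIs, and the other labels lay at 12.5 CPM (M) or lower, with no UMI in P or S. Th1 held 94.1% and Th3 4.46% of all Dio1 UMIs. Thyrocyte RNA was present in every label, so each label's Dio1 was set against the level that its Tg (thyroglobulin, the thyrocyte's main product) would carry at the Dio1 to Tg ratio of Th1. Over all pools, Dio1 was within its counting interval of that level in 14 of 15 other labels. EC1 had 4.32 CPM where Tg carried 5.24, and EC4 had 17.3 CPM where Tg carried 12.1. Th3 was the exception and was below it, at 362.5 CPM where Tg carried 428.5. Within the aJ1aJ2 pools alone, EC4 was above it, at 31.4 CPM where Tg carried 13.7. That rests on aJ1aJ2 4, which held 12 of the 14 UMIs (58.5 CPM) and also the highest EC4 Tg (4969 CPM); the other 2 pools had 1 UMI each (19.3 and 5.27 CPM).

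**Figure D2:**
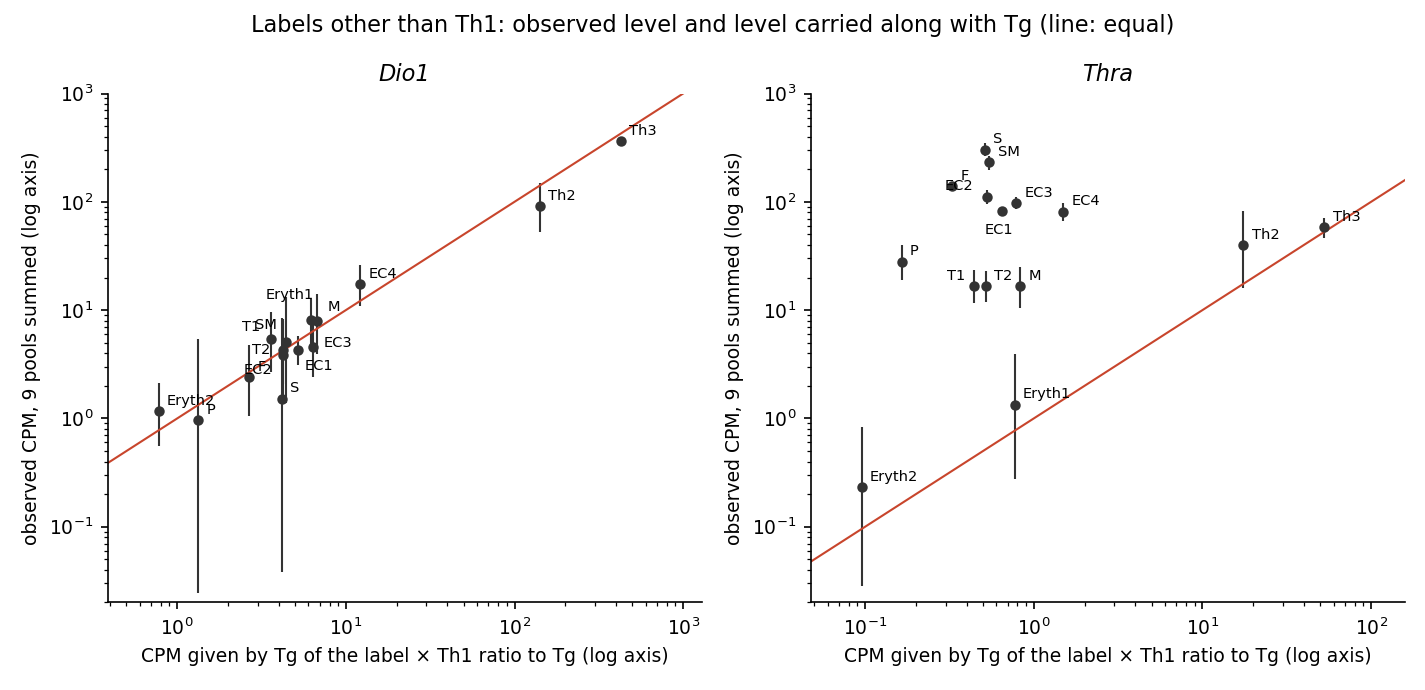
Observed CPM over all 9 pools (exact Poisson 95% interval) against the CPM that a label's Tg would carry at the Th1 ratio, on log axes, for Dio1 and Thra in the 15 labels other than Th1. Dio1 follows the line of equality while Thra lies above it in 11 labels.

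Dio2, the type 2 deiodinase, was found in 8 labels with 26 UMIs in all. F held 13 of them, 7 from aJ1aJ2 4, and SM held 4. Th1 held 3, all from RW 3, which is 0.128 CPM over all Th1 UMIs. Dio3, not one of the 7 genes, had 11 UMIs, all in F and none in RW pools. At this depth Th1 therefore held Dio1 as its only deiodinase with more than 3 UMIs.

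Slc16a10, the aromatic amino acid and hormone carrier MCT10, was at 8.28 CPM (6.68 to 10.1) in RW Th1. Summed over the pools with cells of each label, T2 had 18.5 CPM (13.4 to 24.9) and T1 17.7 CPM (12.4 to 24.5), and Th1 had 7.17 CPM (6.12 to 8.34). T2 had cells in 5 pools, none of them aN1aN2, and 16 and 26 of its 43 UMIs came from RW 2 and aJ1aJ2 3. Its other pools had 0, 0 and 7.66 CPM. T1 and Th1 had cells in all 9 pools. M (9.36 CPM) and F (5.76 CPM) had intervals that overlapped that of Th1. Th2 gave 34.2 CPM from 6 UMIs. In Th2 of the RW pools 3 UMIs gave 63.6 CPM, an interval of 13.1 to 186.

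Slc7a8, the LAT2 light chain, was at 58.3 CPM (46.3 to 72.5) in M over all pools, with UMIs in all 9 pools. The 9 pools contributed 81 UMIs, and 25 came from RW 2, where a single cell held 14. In the RW pools alone M had 31 UMIs and 48.5 CPM (33.0 to 68.8), and RW 2 held 25 of the 31. RW 1 and RW 3 gave 13.1 and 28.1 CPM in M. The RW level of S was 29.5 CPM (14.1 to 54.2), so the RW intervals of M and S overlapped. S and T1 followed at 16.7 CPM each, although 10 of the 11 UMIs of S came from RW 1. P had 13.5 CPM and F 7.88 CPM. In Th1, 30 UMIs gave 1.28 CPM (0.864 to 1.83). All 6 UMIs in Th3 came from aN1aN2 3, and 5 of them from 1 cell.

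Thra, the receptor gene with the wider expression of the pair, was highest in RW pools in S (365.5 CPM, 304 to 436) and SM (294.4 CPM, 232 to 368), whose intervals overlapped. F followed at 135.2 CPM (113 to 161), with an interval that overlapped those of EC2 and EC4. EC3 (92.3 CPM), EC2 (90.8 CPM), EC4 (86.1 CPM) and EC1 (75.9 CPM, 68.5 to 83.8) had overlapping intervals. Below them stood Th3 (51.3 CPM) and Th1 (50.9 CPM, 46.8 to 55.3), then P (29.4 CPM), T1 (24.5 CPM), T2 (16.3 CPM) and M (10.95 CPM), and from Th3 down to M neighbouring intervals overlapped. The erythroid labels had 1.99 and 0.317 CPM. RW 1 gave 97 of the 124 RW UMIs of S, so the top of this order leans on that pool. Against the Tg measure, Thra was above the carried level in 11 of 15 labels, for example 81.7 CPM in EC1 where Tg carried 0.645 and 139.7 CPM in F where Tg carried 0.328. It was within it in Th2, Th3, Eryth1 and Eryth2. Nr1d1 was also above it in 12 labels.

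Thrb, the second receptor gene, was lower than Thra in each label named here. Over all pools it had 39.8 CPM (27.0 to 56.4) in SM, 17.0 CPM (12.8 to 22.0) in F and 9.64 CPM (8.43 to 10.98) in Th1, and these 3 intervals did not overlap. EC3 had 8.10 CPM and EC1 1.91 CPM. Crym, which holds T3 in the cytosol, was not detected in Th1: it had 0 UMIs, and its exact 95% interval ended at 0.157 CPM. A count of 3 UMIs there would be 0.128 CPM. F held 23 of its 35 UMIs, from 7 of 9 pools with 10 in aJ1aJ2 3, and M held 9 from 3 pools.

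The genes most like these in pattern were found by Pearson correlation of log2(CPM + 10) over the 16 labels of the RW pools, among 8081 genes reaching 50 CPM in at least 1 label. The 16 points share libraries and free RNA, so the coefficients are descriptions. Dio1 was most like Foxe1 (r = 0.990), a thyroid transcription factor, Cdh16 (0.989), a cadherin of thyroid and kidney epithelium, and Fxyd4 (0.987). Thra was most like Zc2hc1a (0.959), Cd99l2 (0.939) and Fbxo25 (0.937). For Slc7a8 these were Sema4a (0.887), Lpcat2 (0.872) and Slc35c2 (0.827). These names rest on RW pools in which RW 2 held 25 of the 31 Slc7a8 UMIs of M. No names are given for Thrb, Dio2, Slc16a10 and Crym, whose top RW labels rested on at most 6 UMIs.

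The question put to Th1 was whether blocking the ligands or the receptors changed these genes in thyrocytes. After receptor blockade Dio1 was 3.05-fold lower than in controls and Thra rose, and both also differed between the 2 blockades. After ligand blockade Dio1 was lower in all 3 pools without passing the threshold, and Thra overlapped the controls. UMIs were summed per pool and tested with edgeR over all 10627 genes that passed its low-count filter, with Benjamini-Hochberg adjustment and calls at adjusted p under 0.05. CPM here is scaled to TMM-adjusted totals. Thra, Thrb, Dio1 and Slc16a10 passed the filter, while Slc7a8, Dio2 and Crym did not.

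For Dio1 the RW pools had 673.3 CPM (RW 1), 621.7 CPM (RW 2) and 635.9 CPM (RW 3). The aJ1aJ2 pools had 565.7, 380.2 and 387.6 CPM (pools 1, 3 and 4). The aN1aN2 pools had 221.9, 205.4 and 206.2 CPM. The 3 groups did not overlap, and within aJ1aJ2 pool 1 stood closer to the controls than to the other pools of its group. The means were 643.6 ± 26.6, 444.5 ± 105.0 and 211.2 ± 9.33 CPM (SD, n = 3 pools each). Dio1 fell by 1.61 on the log2 scale after receptor blockade (SE 0.14, adjusted p = 5.96e-07, edgeR). It was also lower after receptor than after ligand blockade, by a log2 difference of -1.07 (SE 0.14, adjusted p = 6.69e-05, edgeR).

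For ligand blockade the log2 difference of Dio1 from RW was -0.54 (SE 0.13, adjusted p = 0.0785, edgeR), lower in 3 of 3 pools. This comparison turned on single pools and on the tool. It passed with DESeq2 (adjusted p = 0.0212), without the low-count filter (0.000755), without aJ1aJ2 1 (log2 difference -0.75, 0.000412) and within series B (-0.76, 0.000132). Without aJ1aJ2 3 the log2 difference was -0.43 with adjusted p = 0.377. The lowest and highest adjusted p among 19 alternatives were 0.000132 and 0.377.

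For Thra the RW pools had 56.3, 53.5 and 45.6 CPM, the aJ1aJ2 pools 52.2, 59.2 and 56.6 CPM, and the aN1aN2 pools 99.5, 85.9 and 91.1 CPM. Every aN1aN2 pool was above every pool of the other groups, which overlapped each other. The means were 51.8 ± 5.5, 56.0 ± 3.5 and 92.2 ± 6.9 CPM (SD, n = 3 pools each). Thra rose by a log2 change of 0.84 after receptor blockade (SE 0.13, adjusted p = 0.000136, edgeR) and was higher than after ligand blockade by 0.71 (SE 0.13, adjusted p = 0.00108). The log2 difference of ligand blockade from RW was 0.13 (SE 0.13, adjusted p = 0.736).

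**Figure D3:**
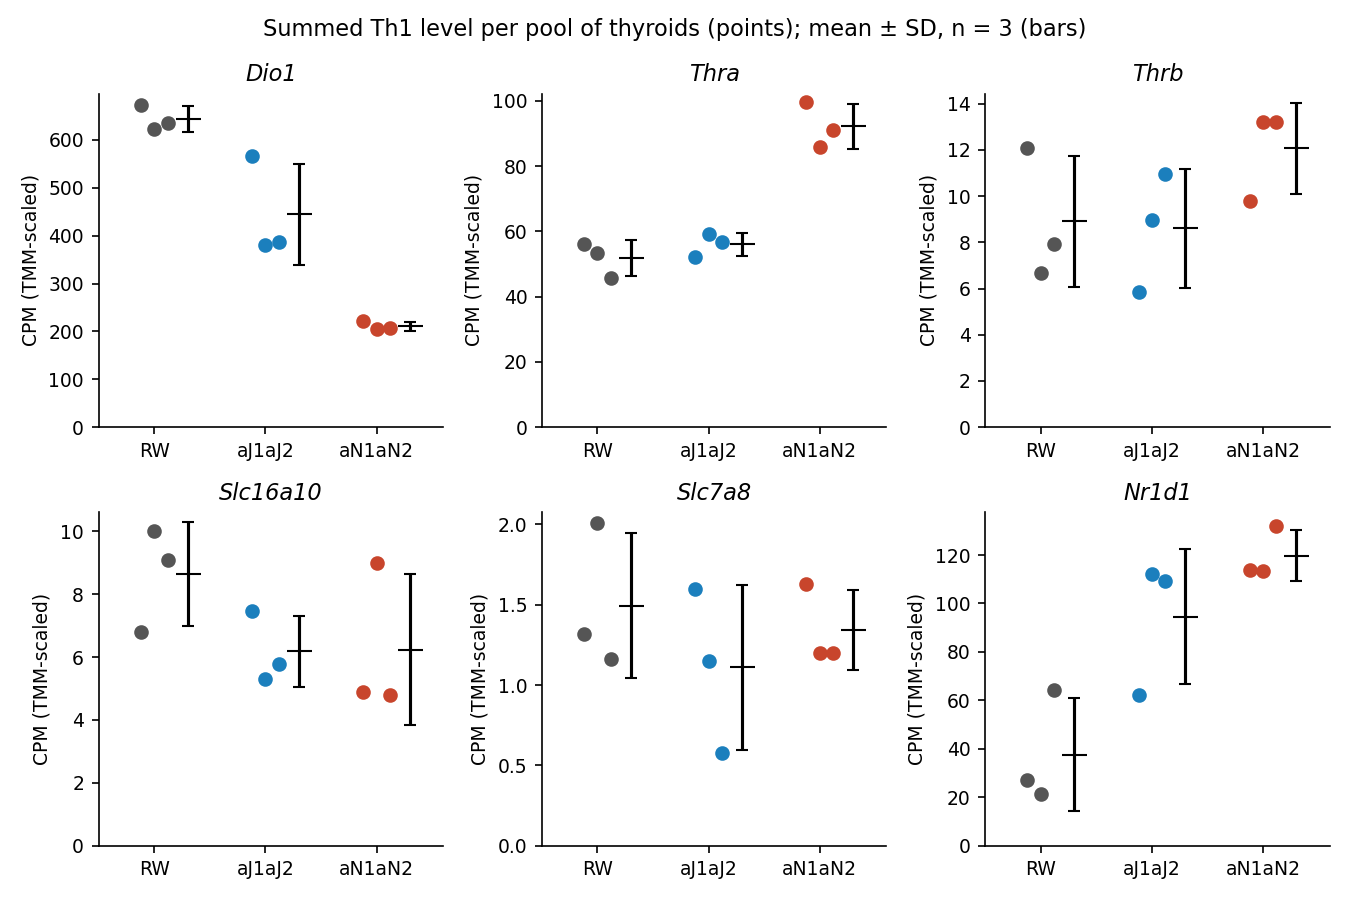
Summed Th1 level of 5 of the genes and Nr1d1 in each pool (points, TMM-scaled CPM) with mean ± SD of 3 pools. The aN1aN2 pools lie apart from the others for Dio1 (205.4 to 221.9 CPM) and Thra (85.9 to 99.5 CPM), while Thrb, Slc16a10 and Slc7a8 overlap.

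Thrb did not separate the groups: 12.1, 6.69 and 7.93 CPM in RW, 5.86, 8.99 and 10.98 CPM in aJ1aJ2, and 9.79, 13.2 and 13.2 CPM in aN1aN2. Its log2 difference of aN1aN2 from RW was 0.35 (SE 0.30, adjusted p = 0.407, edgeR). Slc16a10 had 6.81, 10.0 and 9.09 CPM in RW, 7.46, 5.30 and 5.78 CPM in aJ1aJ2, and 4.90, 9.01 and 4.80 CPM in aN1aN2. Its log2 differences from RW were -0.48 (SE 0.30, adjusted p = 0.557) and -0.38 (SE 0.33, adjusted p = 0.406). Slc7a8 ranged from 0.578 CPM to 2.01 CPM over the 9 pools, with 1 to 6 UMIs in each, so a change in this gene was not detectable at this depth. Without the filter, neither Slc7a8 nor Dio2 was called in any of the 3 comparisons.

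The members' calls stood among many. The share of all 10627 tested genes called was 0.612% after ligand blockade, where no member was called by edgeR, 34.4% after receptor blockade, where 2 members were, and 22.3% between the blockades, where the same pair, Dio1 and Thra, was called. After ligand blockade 1310 genes, Dio1 among them, had an unadjusted p under 0.05, and DESeq2 called 1 member. The 4 tested members had median log2 differences of -0.29, -0.02 and 0.27 in these comparisons, with medians over all tested genes of 0.01, 0.02 and 0.00. A call after receptor blockade was thus common among genes of Th1.

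Shares of cells showed the same pair, at equal depth. Each cell was thinned to 5000 UMIs, which left out 18 of 425 RW, 37 of 396 aJ1aJ2 and 133 of 348 aN1aN2 cells. Cells with a Dio1 UMI made up 93.7%, 92.3% and 87.7% in RW, 88.8%, 78.7% and 81.3% in aJ1aJ2, and 60.4%, 63.5% and 62.5% in aN1aN2. Cells with a Thra UMI made up 26.9%, 23.1% and 20.1% in RW, 22.5%, 25.3% and 27.1% in aJ1aJ2, and 44.6%, 35.1% and 35.0% in aN1aN2. The aN1aN2 pools did not overlap RW for either gene, and the exact two-sided permutation p was 0.1 for both, the smallest that 3 against 3 pools can give. Eryth2 cells at the same depth had Dio1 in 0.427% to 0.692% and Thra in at most 0.346% of cells. Without thinning, the mean share for Thra was 61.1% in RW, 55.9% in aJ1aJ2 and 52.8% in aN1aN2, an order opposite to that of the CPM in cells of unequal depth. Without thinning, the share for Dio1 was 97.0%, 90.9% and 72.3%.

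Several properties of the libraries moved with receptor blockade in Th1. Mitochondrial UMIs made up 6.60% to 6.99% in aN1aN2 and 8.07% to 8.83% in RW, and their part in the results was not tested. Median depth was lower in aN1aN2, and with only cells of at least 5000 UMIs Dio1 and Thra had log2 changes of -1.65 and 0.82. The 4 parathyroid markers summed to 125 to 294 CPM in aN1aN2, 19.7 to 69.1 CPM in aJ1aJ2 and 10.0 to 48.5 CPM in RW. The sum was mostly Pth (95.8 to 236 CPM in aN1aN2, 6.00 to 37.3 CPM in RW) and Chga (29.0 to 57.3 and 3.34 to 10.1 CPM). Casr had up to 0.616 CPM in aN1aN2, in 1 pool, and 0.667 to 2.00 CPM in RW, while Gcm2 had UMIs in 1 aN1aN2 pool, 1 aJ1aJ2 pool and no RW pool. The part of parathyroid RNA in the results was not tested. In the parathyroid label P itself these markers summed to 322463 to 524852 CPM and Thra stood at 28.0 CPM, below Th1. The 5 Schwann markers, with Sox10 at 0 in every pool, summed to 110 to 135 CPM in aN1aN2 and 241 to 277 CPM in RW, and Thra was higher in the Schwann marker label S than in Th1. The 10 thyrocyte markers summed to 98546 to 114120 CPM in aN1aN2 and 90272 to 97491 CPM in RW, and Tg was not called (log2 difference 0.19, adjusted p = 0.305, edgeR).

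Nr1d1, the overlapping gene, had 27.0, 21.4 and 64.4 CPM in RW Th1, 62.4, 112.0 and 109.2 CPM in aJ1aJ2, and 113.7, 113.5 and 131.9 CPM in aN1aN2. It rose by a log2 change of 1.56 after receptor blockade (SE 0.30, adjusted p = 0.00104, edgeR). After ligand blockade its log2 difference in Th1 was 1.25 (SE 0.30, adjusted p = 0.0740, edgeR), and it passed without the filter, within series B, without RW 3 and without aJ1aJ2 1 (adjusted p 0.000970 to 0.354 over the pools left out). In aJ1aJ2 3 and 4 Nr1d1 was about as high as in aN1aN2 1 and 2, while Thra there was 59.2 and 56.6 CPM. After ligand blockade Nr1d1 rose in EC1 (log2 change 1.48, adjusted p = 0.0114), EC2 (2.88, 0.00176), EC4 (2.02, 0.00763) and F (1.68, 0.0468), while the Thra differences there were 0.16, 0.57, -0.15 and 0.19, none called. Whether reads of Nr1d1 entered the Thra count of Th1 was not tested.

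**Figure D4:**
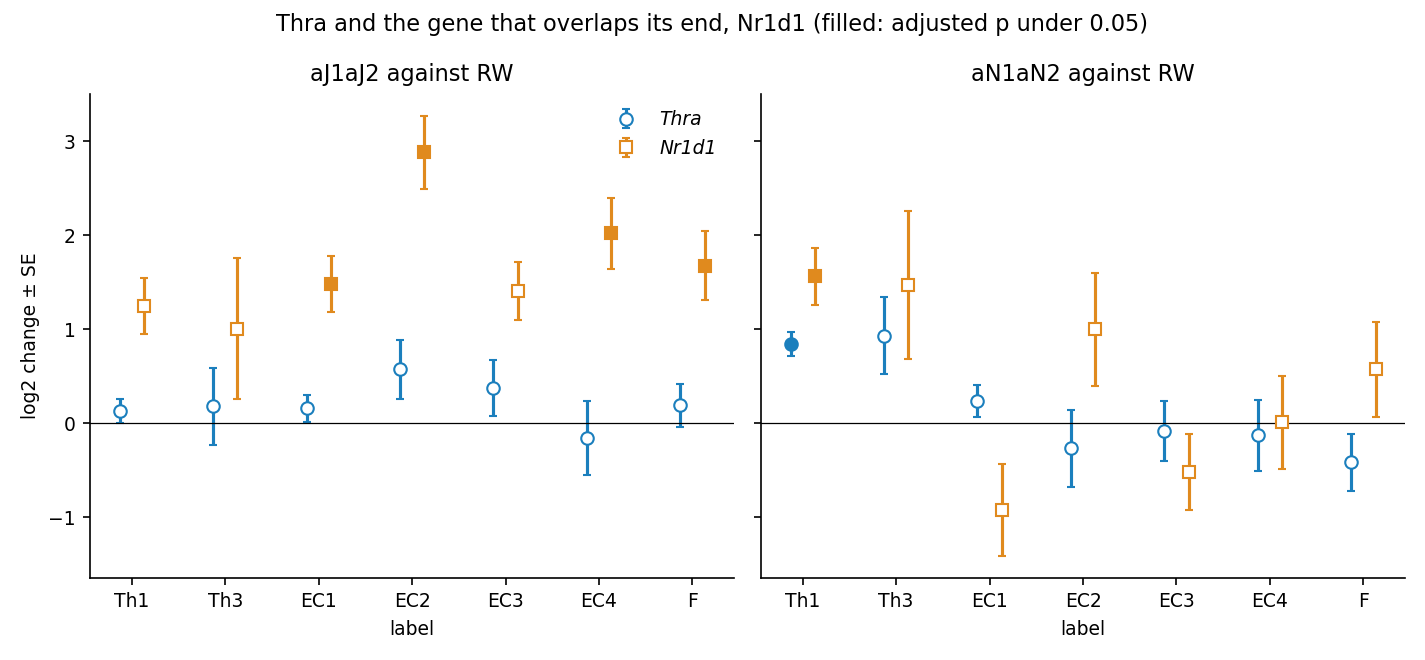
Log2 change ± SE of Thra (circles) and Nr1d1 (squares) in 7 labels after ligand blockade and after receptor blockade, filled where adjusted p is under 0.05. Thra is filled in Th1 after receptor blockade alone, while Nr1d1 is filled in EC1, EC2, EC4 and F after ligand blockade and in Th1 after receptor blockade.

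Outside Th1, Thra was the member with enough UMIs to test in most labels, and no member was called. Thra was tested in 8 labels and Dio1 in Th3 alone, giving 23 tests, of which edgeR called 0 and DESeq2 called 0, with 4 at an unadjusted p under 0.05. These 4 were Dio1 and Thra in Th3 after receptor blockade and Thra in EC2 and F between the blockades. Thra in EC1 ranged over 72.3 to 82.2 CPM in RW, 79.1 to 92.0 CPM in aJ1aJ2 and 76.8 to 101 CPM in aN1aN2, so the groups overlapped. In F it ranged over 90.7 to 169 CPM in RW, 114 to 168 CPM in aJ1aJ2 and 84.1 to 133 CPM in aN1aN2. The log2 differences of Thra after receptor blockade were 0.24 in EC1, -0.27 in EC2, -0.08 in EC3, -0.13 in EC4 and -0.42 in F.

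The background of calls in these labels, over all genes tested, differed widely. For ligand blockade it was 1.43% in EC1, 1.91% in EC2, 0.0618% in EC3, 0.903% in EC4, 0.579% in F, 0% in S and 0% in Th3. In S, 238 of 2070 genes had an unadjusted p under 0.05, and in Th3 it was 74 of 2087. For receptor blockade it was 17.8% in EC1, 15.5% in EC2, 5.91% in EC3, 21.1% in EC4, 19.8% in F and 5.03% in Th3. Between the blockades it was 13.5% in EC1, 10.5% in EC2, 1.27% in EC3, 17.2% in EC4, 16% in F, 4.05% in SM and 1.44% in Th3. Thra was not called in EC1, EC4 or F after receptor blockade, and neither were most genes tested there.

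In Th3 both members differed in the direction seen in Th1 without passing the threshold. Dio1 had 597.3, 400.0 and 330.6 CPM in RW, 213.3, 366.4 and 349.8 CPM in aJ1aJ2, and 252.0, 43.8 and 172.4 CPM in aN1aN2. The aN1aN2 pools lay below all RW pools, with a log2 difference of -1.54 (SE 0.52, adjusted p = 0.119, edgeR). Thra had 48.2, 37.7 and 52.9 CPM in RW and 76.7, 94.9 and 101 CPM in aN1aN2, a log2 difference of 0.93 (SE 0.41, adjusted p = 0.210). The C cell markers of Th3 summed to 36932 to 67719 CPM in RW and 700 to 10485 CPM in aN1aN2. The 4 muscle markers summed to 126 to 559 CPM in RW, 99.2 to 48410 CPM in aJ1aJ2 and 33.1 to 89745 CPM in aN1aN2. Tg had 75891, 105395 and 51817 CPM in RW and 112005, 32738 and 85504 CPM in aN1aN2, so the pool with the lowest Dio1, aN1aN2 2, also had the lowest Tg. The part of these markers and of Tg in the differences was not tested, and without aN1aN2 2 neither Dio1 nor Thra passed. Without the low-count filter Dio1 in Th3 was called.

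A call in Th1 and none elsewhere does not by itself separate the labels, so the difference of the changes was tested with a label by group term. The Thra change after receptor blockade was larger in Th1 than in F by 1.26 (log2, SE 0.30, adjusted p = 0.00573, edgeR) and larger than in EC1 by 0.69 (SE 0.19, adjusted p = 0.0244). Between the blockades these differences were 1.40 for F (SE 0.28, adjusted p = 0.00124) and 0.70 for EC1 (SE 0.20, adjusted p = 0.0401). For F the call held without each pool in turn. For EC1 the call against RW was lost without RW 2, RW 3, aN1aN2 1 or aN1aN2 2 (adjusted p up to 0.0981). Between the blockades it was lost without RW 2, aJ1aJ2 3, aJ1aJ2 4, aN1aN2 1 or aN1aN2 2 (up to 0.142). With library totals in place of TMM neither passed (0.0657 and 0.0918). Against EC4 the differences were 0.89 (adjusted p = 0.261) and 0.60 (adjusted p = 0.603), not called. Nr1d1, the gene that overlaps Thra, moved in the same direction in these tests. After receptor blockade its change was larger in Th1 than in EC1 by 2.55 (adjusted p = 1.41e-06, edgeR) and than in F by 1.21 (0.0377), a call lost without RW 3 (0.85, adjusted p = 0.380) or aN1aN2 2 (1.34, 0.0618). Between the blockades the Nr1d1 differences were 2.77 for EC1 (adjusted p = 3.13e-07) and 1.48 for F (0.000798). Against EC4 they were 1.51 (0.0610, not called) and, between the blockades, 2.20 (1.17e-06). The part of Nr1d1 reads in the Thra differences was not tested. Dio1 passed none of these tests. For receptor blockade its differences were -1.82 against EC1 (adjusted p = 0.166), -1.17 against EC4 (0.659) and -3.19 against F (0.156), where the Dio1 of the other label was within the level carried with Tg. The genes called in these tests made up 8.69% (EC1), 5.54% (EC4) and 5.43% (F) of all tested for receptor blockade, and 4.91%, 2.98% and 3.45% between the blockades. For ligand blockade they made up 0.369%, 0.197% and 0.338%, and no Thra or Dio1 difference was called.

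The surrounding pathway in Th1 was read from 4 lists. Of the 7 other transporters, 3 were tested, and 1 fell after receptor blockade. That was Slc3a2, the heavy chain that carries the LAT light chains to the membrane, with a log2 change of -0.86 (SE 0.19, adjusted p = 0.00261, edgeR). Beside the 34.4% of all tested genes called in that comparison, 1 of 3 is no result about the list.

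Of 11 deiodinase partners, 10 were tested, 2 rose and 1 fell after receptor blockade, 3 of 10 beside 34.4% of all tested genes, which is near the background. Wsb1, an adaptor of the ligase that ubiquitinates the Dio2 protein, rose by 0.76 (log2, SE 0.15, adjusted p = 0.00143, edgeR). Usp20, which removes that ubiquitin, rose by 0.95 (SE 0.26, adjusted p = 0.00985). Pstk, a kinase in the making of selenocysteine tRNA, had a change of -0.79 (SE 0.25, adjusted p = 0.0227). The Pstk call was lost without RW 1, RW 3 or aN1aN2 2 (adjusted p up to 0.153) and with DESeq2. Dio2, on whose protein Wsb1 and Usp20 act, had no UMI in aN1aN2 Th1.

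Of 16 receptor partners, 15 were tested, and 7 rose and none fell after receptor blockade, with a median log2 difference of 0.37 where all tested genes had 0.02. Of all tested genes 34.4% were called, 1814 higher and 1839 lower. Rxra, the retinoid X receptor that pairs with the hormone receptors, had 14.1, 16.04 and 17.2 CPM in RW, 22.4, 19.6 and 16.2 CPM in aJ1aJ2, and 34.3, 42.0 and 45.6 CPM in aN1aN2. The aN1aN2 pools stood above all others, with a log2 change of 1.34 (SE 0.18, adjusted p = 4.47e-05, edgeR). Tbl1xr1, of the corepressor complex, rose by 0.59 (adjusted p = 0.00445), the acetyltransferase Ep300 by 0.52 (0.0118), Rxrb by 0.53 (0.0273), the coactivator Ncoa2 by 0.46 (0.0328) and the corepressor subunit Gps2 by 0.38 (0.0408). The other called partner, the acetyltransferase Crebbp, rose by 0.33 (adjusted p = 0.0494) and is named after its values were seen; its call was lost in 13 alternatives, among them the removal of any 1 RW or aN1aN2 pool. The count of 7 fell to 3 with DESeq2, without the filter, with equal cells per pool and without RW 1, RW 2, RW 3, aN1aN2 1 or aN1aN2 3. Leaving out a pool took the adjusted p up to 0.0691 for Ep300, 0.132 for Rxrb, 0.1003 for Ncoa2 and 0.199 for Gps2. Between the blockades 3 were higher after receptor blockade: Rxra by 1.03, Tbl1xr1 by 0.64 and Ncoa2 by 0.53. The Ncoa2 call there was lost in 7 of 18 alternatives, while those of Rxra and Tbl1xr1 were kept in all 18.

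Of 7 genes known as T3 targets, 6 were tested, and after receptor blockade 1 rose and 3 fell, 4 of 6 beside 34.4% of all tested genes. Klf9, a transcription factor with a T3 response element that also answers to glucocorticoid, had 122.2, 133.0 and 104.4 CPM in RW, 130.6, 163.8 and 153.7 CPM in aJ1aJ2, and 276.3, 371.1 and 308.1 CPM in aN1aN2. Again the aN1aN2 pools stood apart, with a log2 change of 1.42 (SE 0.14, adjusted p = 1.54e-06, edgeR), and of 1.09 against ligand blockade (adjusted p = 4.47e-05). Me1 (malic enzyme) fell by 0.61 (adjusted p = 0.00353), Atp2a2 (a calcium pump of the endoplasmic reticulum) by 0.37 (0.0230) and Bcl3 by 1.07 (0.0247). Without RW 3 the count of 4 called targets was 2. The Atp2a2 call was lost without RW 3 or aN1aN2 1 (adjusted p up to 0.113), and the Bcl3 call without RW 3, aN1aN2 2 or aN1aN2 3 (up to 0.144) and with DESeq2. After ligand blockade edgeR called no gene of the 4 lists with all pools and the low-count filter. Calls appeared under other settings for Slc3a2 (log2 change -0.75 with DESeq2, -0.76 without the filter, -0.93 within series B and -0.99 without aJ1aJ2 1, adjusted p up to 0.0190). They also appeared for Wsb1 (0.59 without the filter and 0.64 without aJ1aJ2 1, up to 0.0479) and Me1 (-0.61 within series B and -0.55 without aJ1aJ2 1, up to 0.0196).

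**Figure D5:**
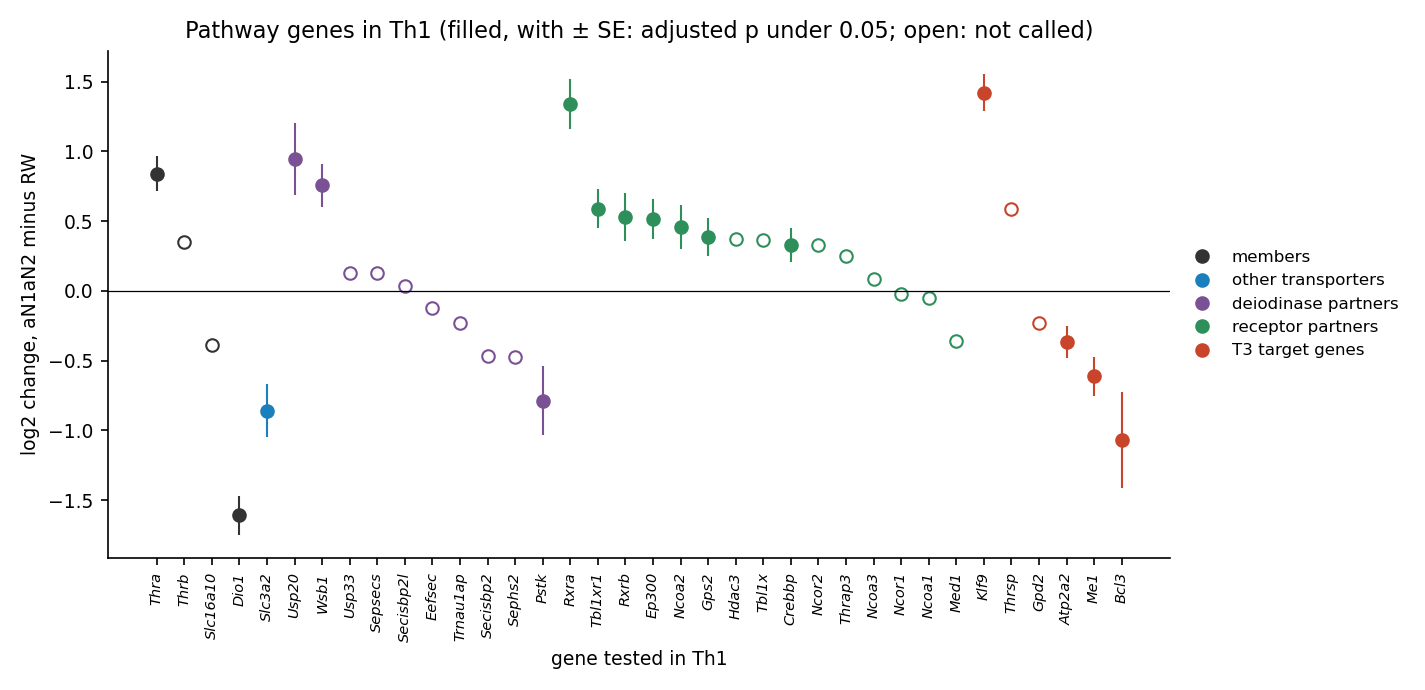
Log2 change in Th1 after receptor blockade for the tested members and pathway genes, with other transporters shown where called, filled with ± SE where adjusted p is under 0.05 and open otherwise. Called genes run from Dio1 at -1.61 to Klf9 at 1.42, and the 7 called receptor partners all lie above 0.

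Over the 9 Th1 sums, the genes whose level followed Dio1 most closely among 10627 tested were Ube2n (Pearson r = 0.994), Tmed3 (0.993) and Bag1 (0.992). The 9 points hold 3 groups that differ in Dio1, and the coefficients describe that ordering only.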

How the data were processed

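The authors deposited 1 table of raw UMI counts per gene and cell and 1 table of cell labels. Cell Ranger and GRCm38 are named per the submitters' processing notes, without versions, and how cells were labelled is not given in the sources used here. Every deposited count was a whole number. Fields shifted by an unquoted comma in 2619 annotation lines were realigned. Replicates are pools of 6 mice, so the spread is between pools. RW 3 and aJ1aJ2 1 have no number in their titles.

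Counts were summed per pool and label (at least 20 cells, other labels needing 2 pools a group) and tested with edgeR 4.0.16 in R 4.3.3 (filterByExpr, TMM, quasi-likelihood, all 9 pools in one fit, Benjamini-Hochberg). DESeq2 1.42.0 was an alternative. Scripts were tested on simulated data. Shares, intervals and levels used Python 3.11.15, numpy 2.4.6, pandas 2.3.3 and scipy 1.17.1. Loci and transcripts are from a GENCODE annotation of GRCm38. All 7 genes are named in every comparison; genes of the 4 lists are named where called in Th1, at most the 6 of smallest p per list and comparison, with Crebbp added after its values were seen. The 7 genes and the lists were chosen with earlier results of these data known. Doublets were not called. Promoters and proteins are not analysed here. 1 gene of the transporter list is not reported here.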

Additional observations from a re-analysis of the deposited data

Results flagged for a closer look

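The change of Thra after receptor blockade differed between Th1 and EC1 and between Th1 and F by an interaction test, while the difference between Th1 and EC4 did not pass it. The log2 change in Th1 minus that in EC1 was 0.69 against RW and 0.70 against ligand blockade. The EC1 call against RW was lost in 4 of 9 settings that left out a pool (adjusted p up to 0.0981), the one against ligand blockade in 5 of 9 (up to 0.142), and both without TMM (0.0657 and 0.0918). The change in Th1 minus that in F was 1.26 against RW and 1.40 against ligand blockade, and both calls held without each pool in turn. For EC4 the differences were 0.89 (adjusted p = 0.261, edgeR) and 0.60 (adjusted p = 0.603, edgeR). Nr1d1, which overlaps Thra on the other strand, had differences of 2.55 (adjusted p = 1.41e-06, edgeR) and 2.77 (3.13e-07) for EC1, and of 1.21 (0.0377) and 1.48 (0.000798) for F, and its part in the Thra differences was not tested. All aN1aN2 pools belong to series C, in both labels of each test.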

How the results depend on the processing

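The calls of Dio1 and Thra after receptor blockade kept direction and side of the threshold in all 20 alternatives run, as they did between the blockades in 18 each. Genes called in Th1 after ligand blockade (65) numbered 103 with DESeq2, 424 without the low-count filter, 26 with only the 2 groups, 30 with Th3 added, 649 within series B, and 1 to 530 leaving out a pool each. Members called there (0) were 1 with DESeq2, 1 without the filter, 1 within series B and 0 to 1 leaving out a pool. Summed over other labels, ligand-blockade calls were 152 with DESeq2, 1172 without the filter and 104 to 1502 leaving out a pool, and 1 member was called after receptor blockade without the filter. Between the blockades Th1 calls (2374) were 1548 to 2369 leaving out a pool. The Thra difference of Th1 from EC1 was 0.60 and 0.62 without TMM, and 0.64 to 0.79 and 0.63 to 0.79 leaving out a pool, with the call lost without TMM and in 4 and 5 of the 9 fits that left out a pool. These added interaction alternatives, and the unblocked fit of the same pools, were chosen after seeing the data. Reversals were the Thra share of cells (points: -5.19, -8.27 and -3.09 unthinned, -0.659 for ligand blockade at 2000 UMIs), Thrb after ligand blockade (-0.25 to 0.18 leaving out a pool) and Slc16a10 between the blockades (-0.047 in cells of at least 5000 UMIs, -0.29 to 0.30 leaving out a pool). The cause was not tested. With the replicate number as a block (RW 1 and 2, aN1aN2 1 and 2), 3524 genes and 2 members were called against 3370 and 2 without the block; Dio1 was -1.60 and Thra 0.76. Deviations of same-numbered pools correlated at 0.02 and -0.01, and those of differently numbered pools at 0.10 and 0.008. So few values cannot tell whether the numbers pair pools, which the sources used here do not state. Dio2, Slc7a8 and Crym had too few UMIs in Th1 to pass the low-count filter.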
